A study of Homo sapiens with 7 samples.

Results

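The transcript response to arsenic trioxide (ATO) was measured in HCT116 p53-/- cells that carried the vector control and no introduced p53. HCT116 cells are a long-used line from a human colon carcinoma, and their p53-/- derivative lacks functional p53, the transcription factor that arrests or kills stressed cells. The comparison used 2 of the 7 libraries of the series, chosen by their count table columns, which are 1 library of vector cells without ATO and 1 of vector cells given ATO at 1 µg/ml for 24 h. The table holds 19699 genes, of which 17161 had a count above 0 without ATO and 16627 with ATO. The sample titles call the control Vechile and the table calls it Vec.

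The series also held p53-/- cells infected with p53-M133T or p53-R273H, substitution variants of p53, each without ATO and with ATO at the same dose and time, and untreated cells infected with wild-type p53. The variant cells serve here as 2 further lines in which the same treatment was measured, and the wild-type library, which has no treated partner, entered the scaling and the floor on low values and is cited for single counts. Every group had 1 library, so the vector comparison has no replicate check and no p-value. The sources used here do not state whether the infected cells were pools or single clones, or what promoter drove the p53 forms. The libraries are of bulk RNA, in which fewer cells of a type and less RNA per cell cannot be told apart.

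Total counts were 34474017 without and 38577709 with ATO, within a range of 25062996 to 39297534 over all libraries. The 10 most abundant genes took 5.78% of the counts without and 6.01% with ATO. Levels are given as CPM, counts scaled to a common library size. The epithelial markers EPCAM (240.1 and 260.5 CPM without and with ATO), KRT8 (1685 and 2157 CPM) and CDH1 (116.2 and 142.9 CPM) and the intestinal factor gene CDX2 (13.02 and 15.18 CPM) were present. Of 15 intestinal epithelial markers listed, 7 reached 1 CPM in some library, 5 of them higher and 2 lower with ATO. KRT19 was among the lower, at 579.4 and 388.7 CPM. CDX1 and FABP1, markers of differentiated intestinal cells, had 0 counts in both libraries, and VIL1 had 9 and 5 counts. Of 15 mesenchymal and fibroblast markers, 5 reached a floor of 1 CPM in some library, with FN1 (23.63 and 17.53 CPM) and COL1A1 (22.21 and 16.99 CPM) the highest. All 5 lay below 0 with a median log2 ratio of -0.37, while 52.7% of all genes at the floor lay above 0. VIM had 212 and 93 counts, while DCN had 0 counts in both libraries. Of 10 leukocyte markers 3 reached the floor, with CD68 (4.10 and 6.89 CPM) the highest, and PTPRC had 1 and 3 counts. The part of these markers in the ratios of other genes was not tested.

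Arsenite binds pairs of cysteine thiols, depletes glutathione and raises oxidants. NRF2, a transcription factor held down by the thiol sensor KEAP1, then drives genes for glutathione and thioredoxin, while HMOX1 is also released from the repressor BACH1. Metals displaced inside the cell activate MTF1, which drives metallothionein genes, misfolded proteins activate the heat shock factor HSF1, and stress kinases that act on translation raise the factor ATF4. These factors can act in cells without p53, and arsenic trioxide is used in the clinic against acute promyelocytic leukaemia.

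With ATO, vector cells had higher transcripts of genes for heme breakdown, metal binding, glutathione and ferritin, and lower transcripts of circadian clock output genes, WNT16 and single genes of sterol synthesis and replication. The floor of 1 CPM was reached in some library by 12661 genes, of which 85 (0.671%) were higher by 2-fold or more and 125 (0.987%) lower by as much. With total counts alone as the scaling these were 73 and 179, and the median of all genes moved from 0.02 to -0.05. These counts use the log2 ratio of scaled CPM with a pseudocount of 1 CPM, which understates the change of low genes. The 5th and 95th percentiles were -0.61 and 0.50. Of the 85 and 125 genes, 27 and 35 share exons with another gene, so their reads may have been counted for either. A ratio of 4-fold or more was reached by 10 genes upward and 3 downward. Between untreated libraries of different lines fewer genes lay past 2-fold, with 12 higher (0.0948%) and 14 lower (0.111%) in p53-M133T than in vector cells, and 9 (0.0711%) and 13 (0.103%) in p53-R273H than in vector cells.

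**Figure D1:**
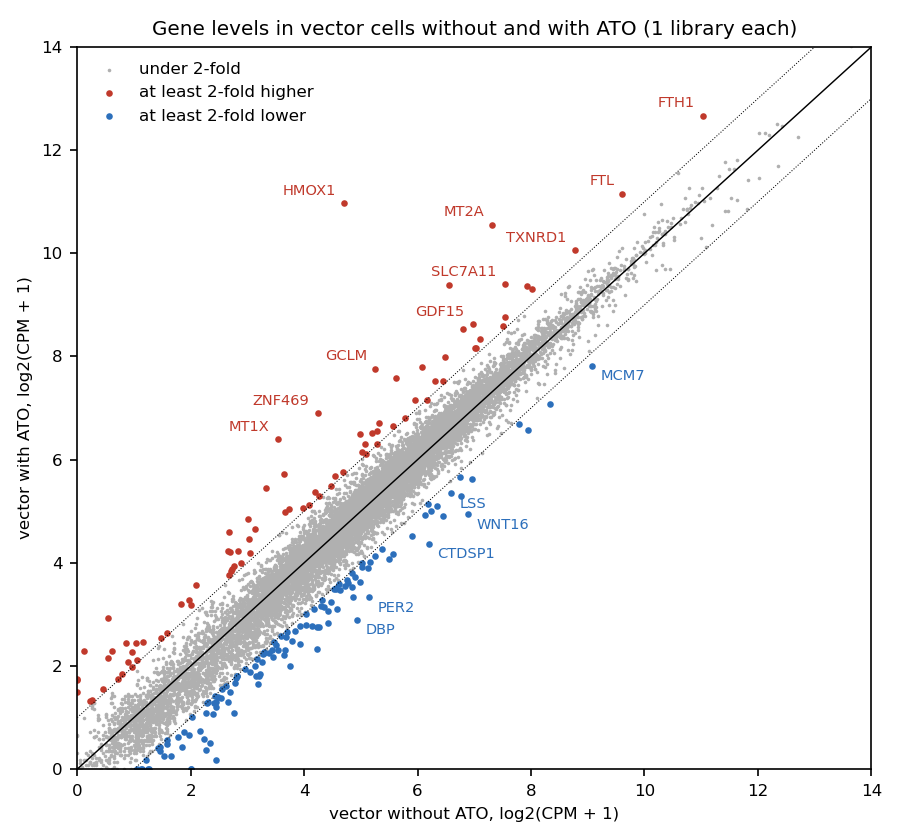
Each point is 1 of the 12661 genes, plotted by its level in vector cells without ATO (horizontal axis) and with ATO (vertical axis), both as log2(CPM + 1). Red points are the 85 genes at least 2-fold higher and blue points the 125 genes at least 2-fold lower. HMOX1 and MT2A lie farthest above the diagonal among abundant genes, and the lower genes are mostly at lower levels.

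HMOX1 (hg38 chromosome 22, 35380361 to 35394214, plus strand; ENSG00000100292), the gene of heme oxygenase 1, which breaks down heme, had the highest ratio of all. It stood at 25.04 CPM without and 2011 CPM with ATO, 80.3-fold higher (95% Clopper-Pearson interval of the split of counts 75.1 to 85.9). Intervals here cover counting error only. Per transcript length, on the TPM scale, which divides counts by exon length and library size, HMOX1 moved from rank 4229 (41.5 TPM) to rank 28 (3294 TPM) of all genes. It also rose in the test of the other 2 lines, which used none of the vector libraries (log2 6.22, SE 0.12; edgeR's quasi-likelihood test, adjusted p = 1.01e-07).

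Metallothionein genes, for small cysteine-rich proteins that bind zinc, copper and arsenite, had the highest median ratio of the lists over members at the floor, 6 of 12 here, but a median of 0.11 with no floor. MT2A (chromosome 16, 56608199 to 56609497, plus strand) stood at 158.5 CPM without and 1501 CPM with ATO, 9.47-fold higher (9.21 to 9.73). MT1X went from 10.6 to 83.5 CPM (7.87-fold, 7.07 to 8.78) and MT1E from 92.4 to 663.6 CPM (7.18-fold, 6.92 to 7.45). These genes lie in 1 cluster on chromosome 16 and are near-identical in sequence, so reads may have been split between them.
The zinc exporter gene SLC30A1 was 2.37-fold higher (2.21 to 2.54; 32.7 and 77.5 CPM), and MT1F, at 1.53 and 3.31 CPM, had a ratio of 2.17 without the pseudocount (1.56 to 3.04). MTF1, the factor that drives these genes, stood at 47.8 and 56.0 CPM, a ratio of 1.17 (1.1 to 1.25). Of the 12 genes listed, 6 reached the floor. Of these, 4 were at least 2-fold higher (background 0.671%) and 0 lower (background 0.987%). Their median log2 ratio was 2.02 beside 0.02 for all genes, and 5 of the 6 rose in the other 2 lines (background 11.3% of 13389 genes tested). MT1A, MT1B, MT1G, MT1H, MT1M and MT3 stayed under the floor.

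Promoter windows (RefSeq, GRCh38.p14) of the metallothionein and zinc export genes that held the searched core are shown because MTF1 is known to bind short metal response elements. Each line gives the 250 bases ahead of the annotated start, 5′ to 3′ on the gene's strand, and capitals mark the core letters TGCACNC or TGCGCNC on either strand. The windows lie at chr16:56608334-56608583 (plus strand), chr16:56682220-56682469 (plus strand) and chr1:211579162-211579411 (minus strand).
MT2A: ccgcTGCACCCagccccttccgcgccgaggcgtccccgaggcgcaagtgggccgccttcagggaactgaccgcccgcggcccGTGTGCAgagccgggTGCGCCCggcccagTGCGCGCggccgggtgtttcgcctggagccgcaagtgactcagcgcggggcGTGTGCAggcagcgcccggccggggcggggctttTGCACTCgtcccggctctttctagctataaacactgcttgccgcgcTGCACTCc
MT1X: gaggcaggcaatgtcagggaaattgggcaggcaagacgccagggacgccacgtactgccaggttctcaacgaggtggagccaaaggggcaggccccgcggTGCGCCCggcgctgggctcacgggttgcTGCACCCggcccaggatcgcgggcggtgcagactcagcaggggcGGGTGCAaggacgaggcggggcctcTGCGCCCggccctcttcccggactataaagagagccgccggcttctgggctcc
SLC30A1: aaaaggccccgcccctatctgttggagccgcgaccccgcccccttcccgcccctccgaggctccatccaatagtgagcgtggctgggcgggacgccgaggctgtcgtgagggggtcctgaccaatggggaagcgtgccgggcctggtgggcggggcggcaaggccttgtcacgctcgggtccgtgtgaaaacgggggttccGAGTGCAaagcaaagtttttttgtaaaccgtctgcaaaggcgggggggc
The core occurred at 7 places for MT2A, 4 for MT1X and 1 for SLC30A1. These genes were picked for display after the windows had been searched. Of the list's members at the floor, 4 had a window and 3 of these held the core, and MTF1, whose window lacks these letters, is not shown. Of 9727 genes at the floor with a window of this length, 33.7% held the core, against 41.1% of 56 genes at least 2-fold higher and 31.5% of 92 at least 2-fold lower. A match describes letters and is not a shown binding site.

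Genes that store iron and make or break heme were higher together with HMOX1. The ferritin heavy chain gene FTH1 stood at 2094 CPM without and 6496 CPM with ATO (3.1-fold, 3.08 to 3.13), and the light chain gene FTL at 781.9 and 2281 CPM (2.92-fold, 2.88 to 2.96). FTH1 shares exons with another gene. Per length, FTH1 had rank 20 without and 3 with ATO, and FTL rank 22 and 7. ALAS1, which begins heme synthesis, was 2.34-fold higher (2.24 to 2.45; 78.5 and 183.6 CPM). The bilirubin-forming reductase gene BLVRB was 2.06-fold higher (1.93 to 2.22; 33.0 and 68.1 CPM). Of 14 heme and iron genes at the floor, 5 were at least 2-fold higher (background 0.671%) and 0 lower (background 0.987%). Their median log2 ratio was 0.43. The transferrin receptor gene TFRC had a log2 ratio of 0.23, just past the 75th percentile of all genes (0.21), and the iron regulatory genes ACO1 (0.07) and IREB2 (0.14) lay between the median (0.02) and that percentile.

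In the glutathione list the genes for cystine uptake and the first synthesis step stood highest. GCLM, the modifier subunit of glutamate-cysteine ligase, stood at 37.2 CPM without and 216.1 CPM with ATO (5.8-fold, 5.47 to 6.16), and the catalytic subunit gene GCLC at 86.8 and 182.4 CPM (2.1-fold, 2.01 to 2.19). SLC7A11, the cystine importer, stood at 185.3 and 676.8 CPM (3.65-fold, 3.55 to 3.75). Its partner chain gene SLC3A2 was 1.64-fold higher (1.6 to 1.67), and the glutathione reductase gene GSR was 1.47-fold higher (1.42 to 1.51). GPX4, which uses glutathione to reduce lipid peroxides, was lower, at a ratio of 0.697 (0.673 to 0.722). Of 14 members, 3 were at least 2-fold higher (background 0.671%) and 0 lower (background 0.987%), with a median log2 ratio of 0.43. In the other 2 lines 8 of the 14 rose (background 11.3%) and 1 fell (background 10.5%).

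Enzymes that reduce thioredoxin, peroxiredoxins and quinones were higher in part. SRXN1 (sulfiredoxin, which repairs peroxiredoxins) stood at 110.4 CPM without and 370.7 CPM with ATO, 3.36-fold higher (3.24 to 3.48). NQO1, a quinone reductase and classical NRF2 target, stood at 244.2 and 662.3 CPM (2.71-fold, 2.65 to 2.78), and the thioredoxin reductase gene TXNRD1 at 437.6 and 1071 CPM (2.45-fold, 2.4 to 2.49). OSGIN1, an oxidative stress-induced gene, was 2.6-fold higher (2.33 to 2.91). The peroxiredoxin genes ranged from PRDX4 at a log2 ratio of -0.24 to PRDX6 at 0.29, and catalase, CAT, stood at -0.15. Of 17 members, 4 were at least 2-fold higher (background 0.671%) and 0 lower (background 0.987%), and the median was 0.26. SRXN1 and OSGIN1 share exons with other genes, and their values are uncertain, since the sources used here give neither the counting rule nor the use of strand.

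For NADPH, the reductant these enzymes consume, ME1 (malic enzyme) stood at 87.9 CPM without and 254.8 CPM with ATO, 2.9-fold higher (2.78 to 3.02). The median of the 12 genes of this list was 0.05, and -0.03 with total counts alone. Among the aldo-keto and carbonyl reductase genes 6 of 13 reached the floor, 3 above and 3 below 0, with a median log2 ratio of -0.08. AKR1B10 had 3 counts without and 37 with ATO, a ratio of 11.6 with a wide interval (3.69 to 59.0). It stayed under 1 CPM in both vector libraries and reached the floor with ATO in p53-M133T (1.27 CPM) and p53-R273H cells (1.16 CPM). CBR4 (-0.71) and AKR7A2 (-0.40) had log2 ratios below 0, and AKR1C1, under the floor, had 18 and 23 counts. The windows of GCLM and ME1 are shown because NRF2 with small MAF proteins is known to bind antioxidant response elements. Capitals mark the core TGACNNNGC on either strand, which in ME1 opens with the AP-1 motif TGACTCA, so both motifs overlap there. The windows lie at chr1:93909431-93909680 and chr6:83431052-83431301 (both minus strand, GRCh38.p14).
GCLM: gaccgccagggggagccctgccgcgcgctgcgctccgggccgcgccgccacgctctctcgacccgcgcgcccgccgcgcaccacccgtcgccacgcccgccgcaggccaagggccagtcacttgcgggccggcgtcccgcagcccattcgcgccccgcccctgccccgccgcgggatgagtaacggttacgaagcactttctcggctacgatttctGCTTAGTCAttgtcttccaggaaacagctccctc
ME1: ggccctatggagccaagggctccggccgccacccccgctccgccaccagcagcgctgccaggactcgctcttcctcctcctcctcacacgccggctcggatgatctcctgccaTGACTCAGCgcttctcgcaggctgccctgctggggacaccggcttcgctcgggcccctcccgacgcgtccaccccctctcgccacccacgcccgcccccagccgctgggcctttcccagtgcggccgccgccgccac
The core was held by 12.04% of all 9727 windows, by 19.64% of those of the genes at least 2-fold higher and by 11.96% of those of the genes at least 2-fold lower. By list, it was held by 3 of 9 glutathione and 3 of 11 NADPH windows. In the thioredoxin and quinone list 1 of 13 windows held it (7.69%), and among NRF2 regulators 1 of 10 (10.0%). Both genes were picked after the search.

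Genes of the NRF2 pathway itself differed by role. NFE2L2, which encodes NRF2, stood at 153.4 and 168.7 CPM (ratio 1.1, 1.06 to 1.14) and KEAP1 at 91.4 and 105.3 CPM (1.15, 1.1 to 1.21). The small MAF partner genes MAFF (1.78-fold, 1.6 to 1.97) and MAFG (1.72-fold, 1.64 to 1.8) and the repressor gene BACH1 (1.35-fold, 1.25 to 1.47) were higher. SQSTM1, whose product p62 removes KEAP1 and is an autophagy receptor, stood at 258.5 and 635.4 CPM, 2.46-fold higher (2.4 to 2.52). SQSTM1, NFE2L2, MAFG and BACH1 share exons with other genes. In the other 2 lines MAFF, MAFG, BACH1 and SQSTM1 were among the 6 of 11 members that rose (background 11.3%). There NFE2L2 (adjusted p = 0.305) and KEAP1 (adjusted p = 0.954) did not pass edgeR's quasi-likelihood test.

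Among ATF4 factors and targets, 3 genes passed 2-fold and most others had small ratios. NUPR1, a stress-induced chromatin protein, had 1.05 and 4.43 CPM (4.24-fold, 2.95 to 6.22). GDF15, a secreted stress cytokine that p53 also induces, stood at 125.3 CPM without and 392.4 CPM with ATO in cells without p53 (3.13-fold, 3.03 to 3.24). TRIB3, a pseudokinase that restrains ATF4, stood at 130.2 and 286.7 CPM (2.2-fold, 2.13 to 2.28). ATF4 itself was 1.29-fold higher (1.26 to 1.31), and DDIT3, the factor CHOP linked to cell death, 1.48-fold (1.37 to 1.59). CHAC1, which degrades glutathione, had a ratio of 1.14 (1.06 to 1.22) and ATF3 one of 1.17 (1.07 to 1.27). Of 20 members at the floor, 18 had a log2 ratio above 0 (background 52.7%) and 3 were at least 2-fold higher (background 0.671%). The median was 0.32.

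Amino acid supply genes, many of them ATF4 targets, lay on both sides of 0, with 3 members below 0 in each of the lists for serine, one-carbon and asparagine synthesis, transporters and tRNA synthetases. PHGDH, the first enzyme of serine synthesis, was 1.69-fold higher (1.63 to 1.75), PSAT1, the next step, 1.61-fold (1.58 to 1.65), and asparagine synthetase, ASNS, 1.5-fold (1.47 to 1.53). None of the 14 serine, one-carbon and asparagine genes reached 2-fold (background 1.66% either way), and their median was 0.22. The 13 amino acid transporters had a median of 0.47, with SLC1A4 (1.69-fold, 1.55 to 1.85) and SLC7A5 (1.58-fold, 1.56 to 1.6) below SLC7A11. Of the 20 cytosolic tRNA synthetases 17 lay above 0 (background 52.7%), with a median of 0.29. WARS, for tryptophan, stood apart at 185.3 and 432.6 CPM (2.33-fold, 2.27 to 2.4), while SARS, for serine, was 1.57-fold (1.52 to 1.62) and GARS, for glycine, 1.55-fold higher (1.51 to 1.58). WARS shares exons with another gene.

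Heat shock genes, which HSF1 drives when proteins misfold, were led by HSP70 family members. HSPA8, the constitutive chaperone HSC70, stood at 1546 CPM without and 3025 CPM with ATO (1.96-fold, 1.94 to 1.98). The inducible HSP70 gene HSPA1B stood at 216.5 and 417.4 CPM (1.93-fold, 1.88 to 1.98), and the co-chaperone gene DNAJB4 was 1.98-fold higher (1.8 to 2.17). HSPA1A is a near-identical copy of HSPA1B, and its 3.59 and 7.67 CPM are therefore uncertain. BAG3 was 1.65-fold higher (1.58 to 1.72) and DNAJB1 1.45-fold (1.41 to 1.49), whereas HSPB1, a small heat shock protein gene, had a log2 ratio of -0.12. Of 23 members, 20 lay above 0 (background 52.7%), or 18 with total counts alone (background 42.7%). None reached 2-fold with the pseudocount (background 1.66% either way), and the median was 0.21. HSPA8 stood lower without ATO in vector cells than in p53-M133T (1915 CPM) and p53-R273H cells (1951 CPM), whose ratios were 1.64 and 1.55. The difference of its ATO effect from the mean of those lines was a log2 of 0.28 (SE 0.14) and was not called by edgeR's quasi-likelihood test (adjusted p = 1).
The window of HSPA8 (chr11:123062137-123062386, minus strand, GRCh38.p14) is shown with the heat shock core GAANNTTC, which reads the same on both strands, in capitals.
HSPA8: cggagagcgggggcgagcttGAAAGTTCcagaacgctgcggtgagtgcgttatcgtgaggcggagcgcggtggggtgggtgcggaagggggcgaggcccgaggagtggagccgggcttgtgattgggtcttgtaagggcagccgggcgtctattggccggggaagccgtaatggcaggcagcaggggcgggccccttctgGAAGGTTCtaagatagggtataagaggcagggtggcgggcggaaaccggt
The core occurred at 2 places. It was held by 38.1% of 21 heat shock gene windows and by 3.83% of all 9727 windows, and 1 of 56 genes at least 2-fold higher held it.

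Other protein quality lists had medians above 0. All 32 proteasome subunit genes had a log2 ratio above 0 (background 52.7%), between 0.03 for PSMD4 and 0.50 for PSMD14, with a median of 0.24. With total counts alone 30 of the 32 lay above 0 (background 42.7%). PSMD14, the lid deubiquitinase, was 1.42-fold higher (1.37 to 1.46). In the other 2 lines 4 of the 32 rose, near the background of 11.3%. Of 25 autophagy and lysosome genes 22 lay above 0 (background 52.7%), or 20 with total counts alone (background 42.7%). Their median was 0.32. MAP1LC3B, the core autophagosome protein LC3B, stood at 136.0 and 322.4 CPM (2.37-fold, 2.29 to 2.45), its relative GABARAPL1 was 2.26-fold higher (2.08 to 2.46), and the receptor gene CALCOCO2 1.92-fold (1.85 to 2.0). MAP1LC3B shares exons with another gene. In the endoplasmic reticulum, the degradation genes SEL1L (1.58-fold, 1.51 to 1.65) and SYVN1 (1.57-fold, 1.48 to 1.67) were higher, and the chaperone gene HSPA5 had a ratio of 1.26 (1.24 to 1.27). The folding genes PDIA4 and CALR had log2 ratios of -0.46 and -0.40, and the 23 genes of that list had a median of 0.21.

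**Figure D2:**
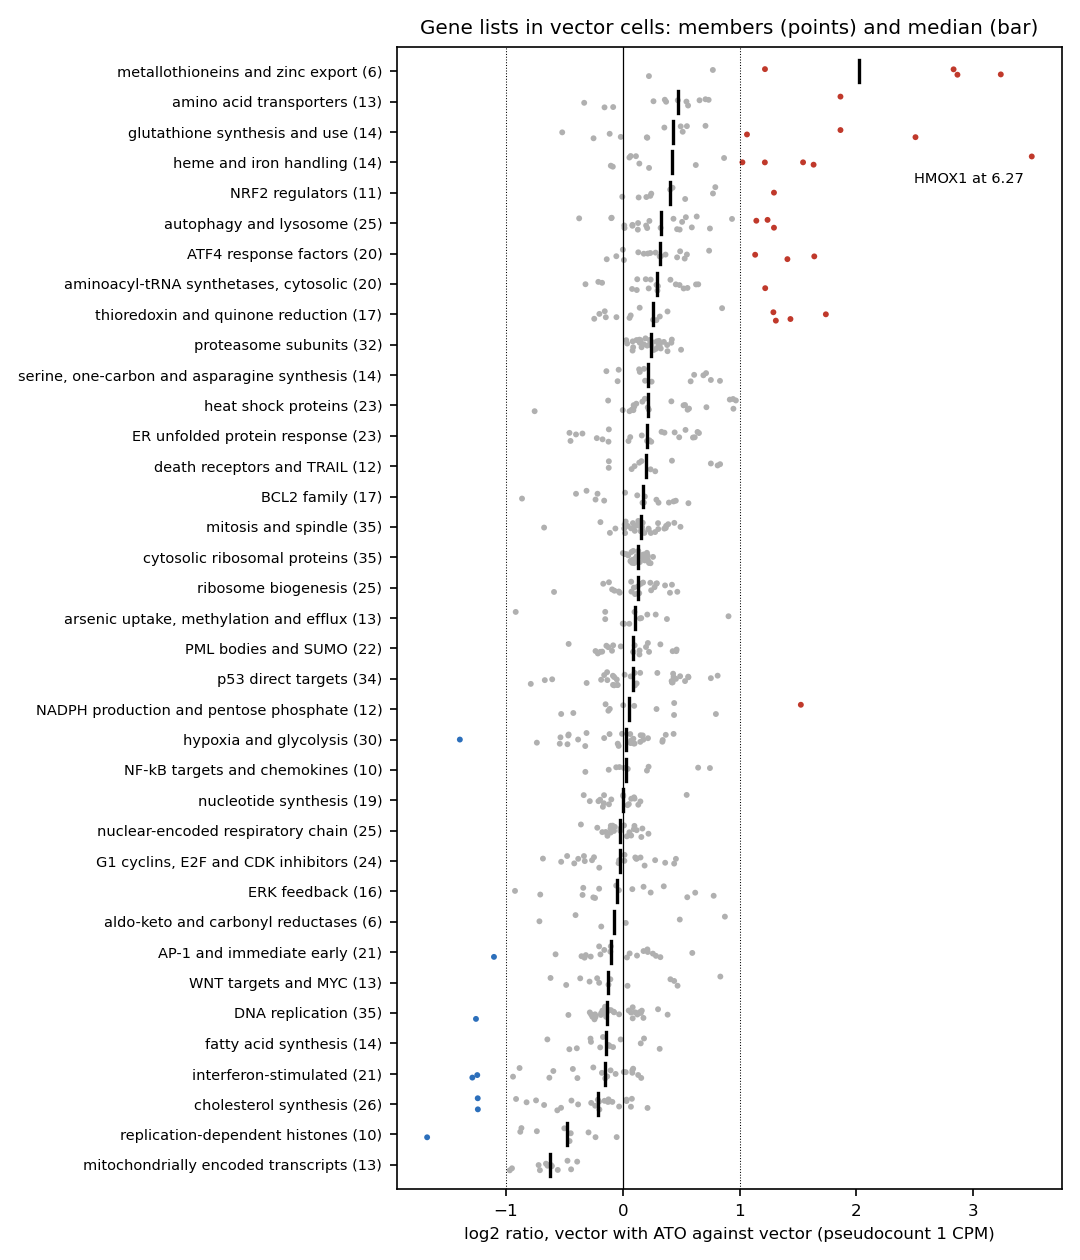
Gene lists in vector cells, ordered by median. Each point is a member that reached the floor, plotted by its log2 ratio with ATO against without (pseudocount 1 CPM), red at 2-fold higher or more and blue at 2-fold lower or more, and the bar is the median. The metallothionein median of 2.02 stands apart, and the mitochondrially encoded transcripts have the lowest median drawn, -0.62; HMOX1 is drawn at the edge of the panel and the marker lists of other cell types are not drawn.

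Genes outside these lists stood among the 12 highest. ZNF469, a zinc finger gene linked to corneal collagen, stood at 17.9 CPM without and 118.4 CPM with ATO (6.63-fold, 6.1 to 7.22). UPP1, which salvages uridine, stood at 48.0 and 190.2 CPM (3.97-fold, 3.76 to 4.18), and FAM129A, a stress-linked gene, at 11.6 and 52.0 CPM (4.51-fold, 4.05 to 5.03). TRIM16L (9.03 and 43.0 CPM; 4.76-fold, 4.22 to 5.39) has a near-identical paralog, TRIM16, and TMEM79, which shares exons, was 4.3-fold higher (3.67 to 5.06). HTRA3, a secreted protease gene, had 0.0849 CPM without ATO, which is 3 counts, and 3.9 CPM with ATO. All of these rose in the other 2 lines (edgeR's quasi-likelihood test, adjusted p between 2.89e-05 for TRIM16L and 2.59e-04 for HTRA3 and TMEM79). CDRT4, which shares exons, was 14.5-fold higher (8.76 to 25.8) at 0.453 and 6.57 CPM, and its ratio was 2.15 in p53-R273H cells.

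Other genes with low ratios belonged to varied functions. WNT16, a secreted WNT ligand, stood at 117.4 CPM without and 29.7 CPM with ATO (ratio 0.253, 0.237 to 0.271). CTDSP1, a phosphatase that acts on RNA polymerase II, stood at 72.2 and 19.6 CPM (0.272, 0.25 to 0.295), and RAB26, a vesicle GTPase gene, at 17.8 and 4.03 CPM (0.227, 0.189 to 0.272). All of these fell in the other 2 lines (edgeR's quasi-likelihood test, adjusted p = 6.05e-05 for WNT16, 3.96e-05 for CTDSP1 and 3.19e-04 for RAB26). KLF2, a short-lived transcription factor gene, had a ratio of 0.453 (0.412 to 0.496), and ALDOC, a glycolytic aldolase that hypoxia induces, one of 0.37 (0.341 to 0.401).

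In sterol synthesis, 2 of 26 genes were at least 2-fold lower (background 0.987%), 21 lay below 0 and 5 above it (background above 0 52.7%), with a median of -0.21. LSS, which closes the sterol ring, stood at 95.2 CPM without and 39.7 CPM with ATO (ratio 0.417, 0.392 to 0.443). SREBF1, a regulator of lipid synthesis, had a ratio of 0.529 (0.512 to 0.547), while the early pathway enzyme gene HMGCS1 had one of 1.06 (1.01 to 1.1), a log2 ratio of 0.08 that was -0.02 with the length and GC correction. In the other 2 lines 11 of the 26 fell (background 10.5%) and 0 rose (background 11.3%). The fatty acid synthase gene FASN had a ratio of 0.639 (0.633 to 0.645) and the desaturase gene SCD one of 0.728 (0.721 to 0.735), and the median of 14 fatty acid synthesis genes was -0.14.

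Among 35 DNA replication genes, MCM7 alone was at least 2-fold lower (background 0.987%). This subunit of the replicative helicase stood at 537.9 and 224.6 CPM (ratio 0.418, 0.407 to 0.428), whereas its partner genes MCM2, MCM3, MCM4, MCM5 and MCM6 had log2 ratios of -0.15, -0.12, -0.26, 0.11 and -0.10. The MCM7 exons overlap those of another gene. The list median was -0.14, and that of 35 mitosis genes was 0.15, with no mitosis gene past 2-fold (background 1.66% either way). The G1 genes CCND1 (1.36-fold, 1.33 to 1.38) and E2F1 (ratio 0.688, 0.639 to 0.74) lay on opposite sides. Of 15 replication-dependent histone genes listed, 10 reached the floor, and all of these lay below 0 (background above 0 52.7%), with a median of -0.48. HIST2H2AA4, a histone gene outside the list, stood at 1.87 and 2.24 CPM. The levels of the list summed to 43.4 and 23.2 CPM.

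All 13 mitochondrially encoded transcripts lay below 0 in vector cells (background above 0 52.7%), with a median log2 ratio of -0.62. MT-ND1, a complex I subunit, stood at 2179 and 1114 CPM (ratio 0.511, 0.505 to 0.518) and MT-ND2 at 3591 and 1861 CPM (0.518, 0.513 to 0.523). These transcripts took 3.69% of the counts without and 2.3% with ATO. The lines differed here, with medians of -0.91 in p53-M133T and 0.01 in p53-R273H cells, and 2 of the 13 fell in the test of those lines, near the background of 10.5%. The 25 nuclear-encoded respiratory genes had a median of -0.02. The 35 cytosolic ribosomal protein genes had a median of 0.13, with 35 above 0 (background 52.7%), or 27 with total counts alone (background 42.7%). In the other 2 lines 0 of them were called (background 11.3% rose and 10.5% fell).

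Interferon-stimulated genes had a median of -0.15. At least 2-fold lower were 2 of 21 (background 0.987%), both at low levels, and 0 with a pseudocount of 5 CPM. These were IFIT1, an antiviral RNA-binding protein gene (4.47 and 1.31 CPM; ratio 0.293, 0.208 to 0.406), and IFITM1 (1.9 and 0.187 CPM; 0.0986, 0.0382 to 0.215). ISG15, a ubiquitin-like modifier, had a ratio of 0.504 (0.451 to 0.562) at 26.9 and 13.5 CPM. Among arsenic handling genes, the aquaglyceroporin gene AQP3, a route of arsenite entry, stood at 6.28 and 2.86 CPM (0.455, 0.358 to 0.576), and ABCC3, an exporter, at 24.96 and 47.61 CPM (1.91-fold, 1.76 to 2.07). AS3MT, which methylates arsenic, and the arsenite channel genes AQP7 and AQP9 did not reach the floor. PML, whose fusion protein arsenic degrades in promyelocytic leukaemia, had a ratio of 0.717 (0.653 to 0.786).

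The p53 targets asked how far these genes moved without p53. None of 34 direct targets reached 2-fold in either direction (background 1.66%). Their median was 0.08, against 0.66 in p53-M133T and 0.18 in p53-R273H cells. CDKN1A, whose product p21 arrests the cell cycle, stood at 60.9 CPM without and 83.9 CPM with ATO (1.38-fold, 1.3 to 1.46), and MDM2, which degrades p53, at 150.4 and 222.2 CPM (1.48-fold, 1.43 to 1.53). MDM2, FAS and TNFRSF10B share exons with other genes. The death receptor genes FAS (6.88 and 12.8 CPM; 1.86-fold, 1.59 to 2.19) and TNFRSF10B (190.8 and 322.4 CPM; 1.69-fold, 1.64 to 1.74) had the highest ratios of the list. FDXR (0.57, 0.525 to 0.619) and DDB2 (0.617, 0.558 to 0.681) had the lowest, and BBC3, which encodes the cell death protein PUMA, had one of 0.889 (0.789 to 1.0).
For 6 of the 34 the vector effect lay below the mean of the other lines at an unadjusted p under 0.05 by edgeR's quasi-likelihood test (background 1.27% in either direction), among them BBC3, RPS27L, FDXR and TIGAR, and none was called after adjustment over all 13974 genes.

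Clock genes were listed after their values had been seen, because DBP, HLF and PER2 stood among the 12 lowest ratios. The clock is a feedback loop in which CLOCK and ARNTL drive PER and CRY genes, whose products block them, and drive the output factors DBP, TEF and HLF. DBP, PER1 and CLOCK share exons with other genes and are uncertain to that extent. DBP stood at 29.5 CPM without and 6.46 CPM with ATO (ratio 0.219, 0.19 to 0.253), TEF at 44.2 and 15.8 CPM (0.357, 0.324 to 0.393), and HLF at 4.05 and 0.427 CPM (0.106, 0.0588 to 0.178). Of the loop's repressors, PER2 stood at 34.3 and 9.06 CPM (0.264, 0.233 to 0.298), PER1 at 86.0 and 28.8 CPM (0.335, 0.312 to 0.359) and CRY1 at 23.7 and 10.1 CPM (0.424, 0.374 to 0.479). ARNTL, the activator, had the highest ratio of the list, at 16.6 and 31.1 CPM (1.88-fold, 1.7 to 2.08), and its partner gene CLOCK had a log2 ratio of -0.23.
Of 23 genes listed 21 reached the floor, 7 were at least 2-fold lower (background 0.987%), 0 higher (background 0.671%), and the median was -0.63. DBP, HLF and PER2, which prompted the list, are among those 7, so that count and the median were set in part by the choice. The median was -0.335 in p53-M133T and -0.763 in p53-R273H cells. DBP fell in the other 2 lines as well (log2 -2.37, SE 0.12; edgeR's quasi-likelihood test, adjusted p = 3.6e-05), and ARNTL rose (0.72, SE 0.10; adjusted p = 0.00367). Each condition was sampled at 1 time.

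**Figure D3:**
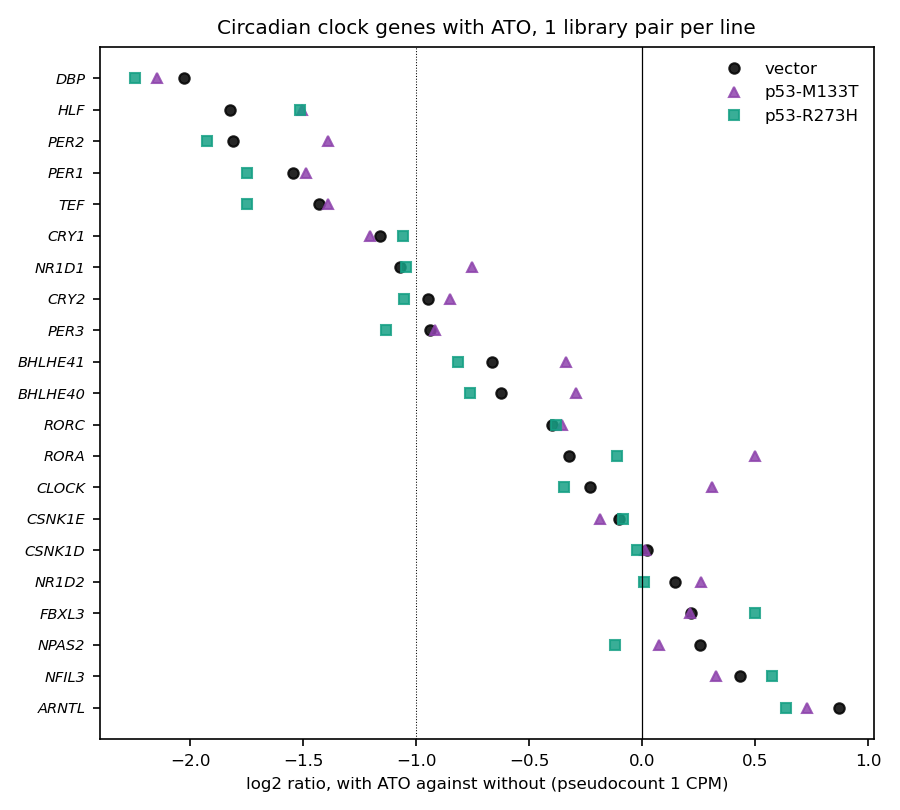
Clock genes ordered by their log2 ratio in vector cells (black circles), with the ratios in p53-M133T (purple triangles) and p53-R273H cells (green squares), each from 1 library pair with a pseudocount of 1 CPM; the dotted line marks 2-fold lower. DBP, HLF, PER2, PER1 and TEF lie left of the dotted line in all 3 lines, and ARNTL lies right of 0 in all 3.

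The vector ratios were then set beside the same treatment in cells with p53-M133T or p53-R273H, to ask what was particular to cells without p53. The test of ATO in those 2 lines, with the line as a block, left 1 residual degree of freedom, and the lines stand in for replicates. Of the 85 genes at least 2-fold higher in vector cells, 77 rose there (90.6%; background 11.3%) and 0 fell, and of 122 tested among the 125 lower genes 109 fell (89.3%; background 10.5%) and 1 rose. By the 2-fold size rule alone, 171 genes were higher (1.35%) and 123 lower (0.971%) with ATO in the p53-M133T pair. The p53-R273H pair had 75 higher (0.592%) and 99 lower (0.782%). Of the 85, 79 lay above 0 in both other lines and 52 were at least 2-fold higher in both. Of the 125, 118 lay below 0 in both and 42 were at least 2-fold lower in both. The shares of all genes on the same side of 0, or past 2-fold, in both other lines were not counted. These counts therefore have no background beside them.

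**Figure D4:**
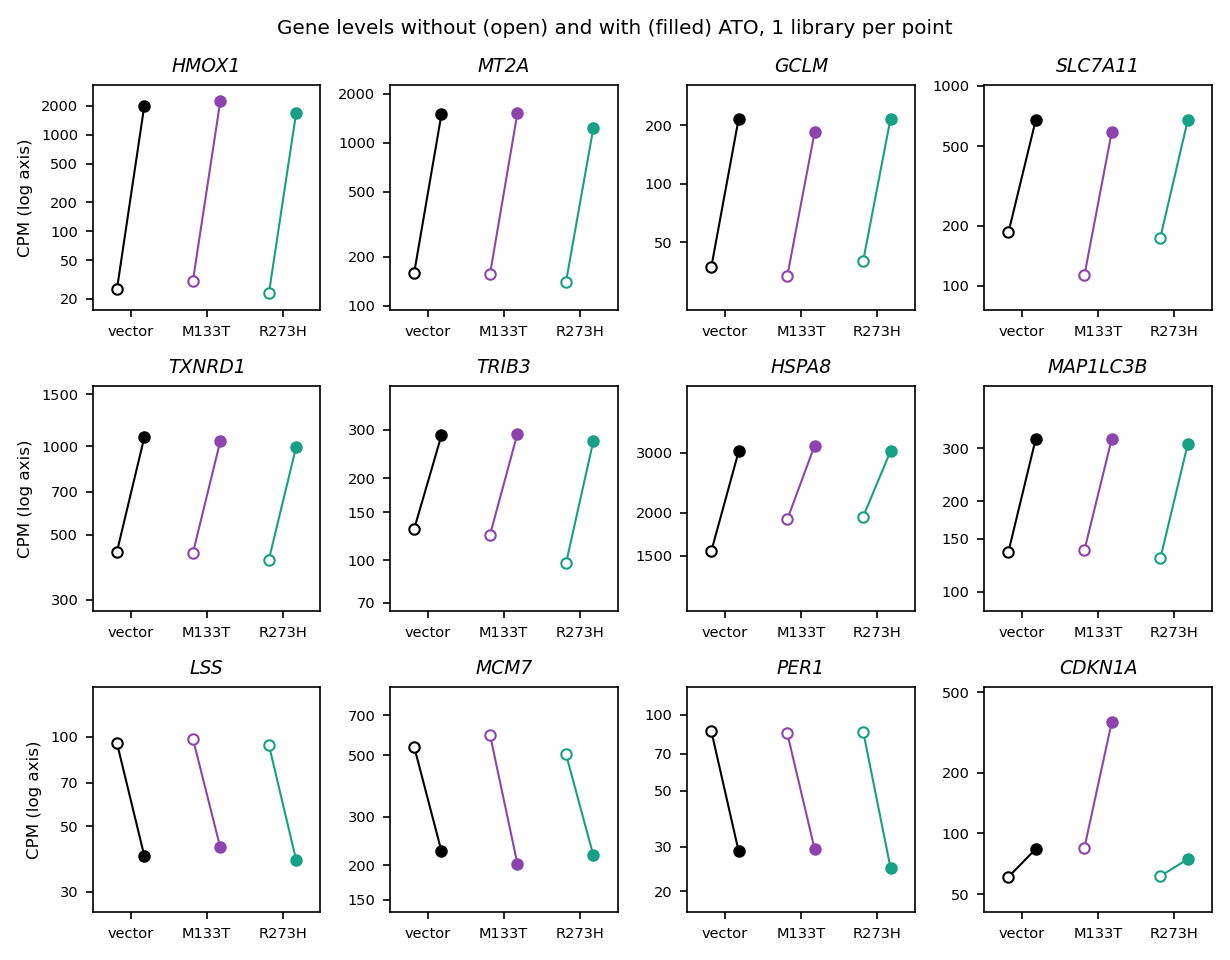
CPM on log axes for genes of the main groups, without ATO (open) and with ATO (filled) in vector (black), p53-M133T (purple) and p53-R273H cells (green), 1 library per point. The line of each pair has a like slope in HMOX1, MT2A, LSS and PER1, while CDKN1A goes from 85.03 to 356.8 CPM in p53-M133T cells and from 60.9 to 83.9 CPM in vector cells.

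No gene was called in the direct test of the vector effect against the mean effect of the other 2 lines (edgeR's quasi-likelihood test, 13974 genes, 1 residual degree of freedom; background 0.0%). At an unadjusted p under 0.05 there were 57 genes higher and 121 lower in vector cells, and the DESeq2 Wald test called 0 higher and 2 lower. Those were HBA1 and HIST2H2AA3, given with their counts below. HMOX1 differed from the mean of the other lines by a log2 of 0.10 (SE 0.16), MT2A by 0.02 (SE 0.16) and GCLM by 0.08 (SE 0.17). GDF15 differed by -0.53 (SE 0.25), with ratios of 5.58 in p53-M133T and 3.59 in p53-R273H cells, and CDKN1A by -0.74 (SE 0.58), with ratios of 4.2 and 1.21. A difference that was not called does not show that the lines responded alike.

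Across 12661 genes the vector log2 ratios had a Spearman rho of 0.772 and a Pearson r of 0.775 with those of p53-M133T cells, and of 0.814 and 0.829 with those of p53-R273H cells. The pairs have no library in common. Genes are not independent replicates, and the ratios share a trend with base composition. The vector ratio had a rho of -0.359 with exon GC content, and in the other lines rho was -0.377 and -0.384. In the tenth of genes with the lowest GC content (32.0% to 39.9%) the median vector log2 ratio was 0.17, with 10 genes at least 2-fold higher and 3 lower. In the tenth with the highest (62.1% to 74.8%) it was -0.20, with 4 higher and 25 lower. After a smooth trend with length and GC content was taken out, 77 of the 85 and 87 of the 125 genes remained past 2-fold.

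**Figure D5:**
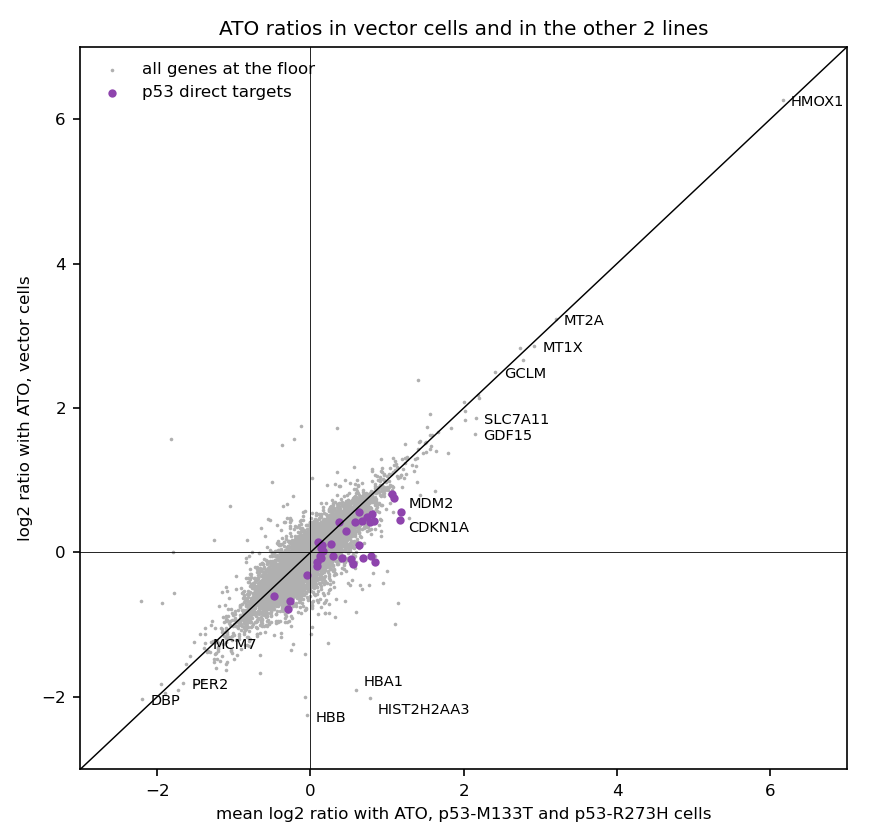
Each grey point is 1 of 12661 genes, plotted by its mean log2 ratio with ATO in p53-M133T and p53-R273H cells (horizontal axis) and its log2 ratio in vector cells (vertical axis), and the diagonal marks equal values. Purple points are p53 direct targets, whose median difference between the vector effect and the mean of the other lines was -0.31 on the log2 scale. That mean joins unlike lines, since the median log2 ratio of these targets was 0.66 in p53-M133T and 0.18 in p53-R273H cells. In vector cells it was 0.08. HMOX1, MT2A, GCLM and DBP lie near the diagonal, and HBB, HBA1 and HIST2H2AA3 lie below it.

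Some of the lowest ratios rest on transcripts that mark other cell types or have copies. HBB, which encodes beta globin, had 156 counts without and 5 with ATO in vector cells, and 217 in wild-type p53 cells, against 0 to 2 in the variant libraries. HBA1 had 136 and 11 counts in vector cells, and HBA2, its near-identical copy, 187 and 55. HBG2, a fetal globin gene, had 105 and 75 counts and between 71 and 134 over the other libraries, and the endothelial gene VWF had 35 and 35 counts. HBG1, PECAM1, CDH5 and KDR did not reach the floor, and the 10 erythroid and endothelial markers listed summed to 18.1 CPM without and 5.29 CPM with ATO. Their part in the other lower ratios was not tested. HIST2H2AA3 had 107 counts without and 0 with ATO, while its near-identical copy HIST2H2AA4 had 66 and 84, so reads may have been split between them and no fold is given. In the other lines HIST2H2AA4 had 110 and 21 counts (p53-M133T) and 48 and 0 (p53-R273H). CTC-432M15.3, which shares exons, had 106 and 0 counts (at least 37.4-fold lower against 3 counts). Over the other libraries HIST2H2AA3 had 16 to 127 counts and CTC-432M15.3 had 0 to 113.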

How the data were processed

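RNA-seq gene counts of 7 libraries were analysed, 1 per group. The authors deposited 1 table of raw whole-number counts per gene, not normalized. TruSeq libraries were sequenced as 150 bp paired ends on a HiSeq Xten, per the labels' protocols. The submitters' processing notes name FastQC, cutadapt, STAR and hg38, and the sources used here name no counting program, annotation or strand setting. All 19699 identifiers were found in GENCODE release 29, which gave coordinates. Exons overlapped those of another gene for 5227 genes. The text does not mark each of these, and DDIT3, DNAJB4, DNAJB1, SYVN1, SREBF1, CCND1, CBR4, MCM2 and KRT8 are among them.

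Counts were scaled with TMM factors (0.967 to 1.03; edgeR 4.0.16, R 4.3.3). A count of 3, the limit that 0 allows, was 0.0849 CPM without and 0.0802 CPM with ATO. For the vector pair, log2 ratios used a pseudocount of 1 CPM and a floor of 1 CPM in any library, and the size threshold was 2-fold; folds in the text omit the pseudocount and carry 95% Clopper-Pearson intervals. Reads were not tagged per molecule, so intervals cover counting error only. Tests used the quasi-likelihood F-test of edgeR, adjusted by Benjamini-Hochberg over all genes tested with a threshold of 0.05, of ATO in the other 2 lines (line as block, 4 libraries) and of the vector effect against their mean (6 libraries). They take the spread between lines for that between cultures, and the latter was not measured. Both tests were run on simulated counts in which the lines shared base levels and the other 2 lines shared the ATO effect. That run did not cover lines that respond differently. DESeq2 1.42.0 and other settings were alternatives.

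The comparison and the 41 gene lists were chosen with earlier results of these data known. Named genes are the 12 highest and 12 lowest ratios, up to 4 members per list with the largest absolute ratio at 10 CPM or more and listed anchors; other members were named after their values were seen. Promoters come from RefSeq GRCh38.p14, the first window listed per gene. Some items are not reported here.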

Additional observations from a re-analysis of the deposited data

How the results depend on the processing

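The 85 higher and 125 lower genes of the vector pair became 46 and 31 with a pseudocount of 5 CPM, 118 and 291 with one of 0.25 CPM, 57 and 53 at a mean of at least 10 CPM, and 73 and 179 with total counts alone, which moved the median log2 ratio from 0.02 to -0.05. They were 81 and 131 with DESeq2 size factors, 90 and 95 with the length and GC correction and 58 and 90 without genes that share exons. The erythroid and endothelial median of -1.35 became -0.67 with a pseudocount of 5 CPM and -0.17 with no floor, and the metallothionein median of 2.02 became 0.11 with no floor and 2.83 at a mean of at least 10 CPM; no named gene past 2-fold changed sign. Genes that rose and fell in the other 2 lines numbered 1511 and 1403, and 895 and 680 by the DESeq2 Wald test, and 885 and 984 with no replicate block. The direct test of the vector effect called 0 higher and 0 lower genes, also with no replicate block. It called 2 lower by DESeq2, 2 higher and 3 lower with no filter, 2 higher and 4 lower with the length and GC correction, and 2 lower without genes that share exons. Those calls were HBA1, HIST2H2AA3, GALNT4, RP11-903H12.5, RP11-512M8.5 and MINOS1-NBL1. The causes were not tested. No paired analysis was possible for the vector pair because each group had 1 library. Leaving out either other line left no residual degree of freedom, so it gave log2 differences and no calls. Depth limits genes under about 1 CPM, and the vector ratios carry no error beyond counting.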
